A study of Caenorhabditis elegans with 2 samples.

Results

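MicroRNA (miRNA) genes were examined for peaks of the tagged transcription factor DAF-19. They were taken by their biotype in the Ensembl WBcel235 annotation, release 115, and no signal or peak value entered that rule. There were 261 of them among 46890 annotated genes on the nuclear chromosomes of the nematode Caenorhabditis elegans. The study holds 1 group with 2 replicates that the labels call biological, and no second condition. Both were whole L4 larvae, 48 hours old, synchronised by starving hatched L1 animals after bleaching. The strain was OP794, in which the transgene wgIs794 carries daf-19 fused to the TY1, EGFP and 3xFLAG tags together with unc-119(+), in an unc-119(tm4063) background. Tagged protein was precipitated with an anti-GFP antibody from chromatin sonicated to 200 to 800 bp. The tagged protein came from a transgene in addition to the strain's own daf-19 gene, and whole animals were used, so no tissue can be assigned to a peak. How the 2 cultures were grown is not stated, and a control experiment named in the labels was not analysed here.

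DAF-19 is the RFX factor of the worm, best known as the regulator that switches on genes of sensory cilia through the X-box, an element in their promoters. A miRNA gene is transcribed into a longer RNA that folds into a hairpin, and the hairpin is cut to a short mature strand that represses messenger RNAs. Target choice rests mainly on the seed, bases 2 to 8 of the mature strand, so miRNAs with one seed form a family. In the worm, lin-4 and let-7 time larval development, lsy-6 sets the left and right identity of a pair of taste neurons, and the mir-35 and mir-51 families are needed in the embryo.

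The miRNAs on which the results turn are shown with their mature strands. These come from the WBcel235 reference genome of RefSeq at the positions of the Ensembl mature annotation, written as RNA, 5′ to 3′, with the seed in capitals. The first 6 lines are the mir-51 family, which shares 1 seed although it lies on the 5p arm in mir-51, mir-52 and mir-53 and on the 3p arm in mir-54, mir-55 and mir-56. Then come mir-48 and let-7, with 1 seed between them, and after them mir-124, lin-4 and mir-250, each with another seed.
mir-51 5p: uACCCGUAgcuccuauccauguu
mir-52 5p: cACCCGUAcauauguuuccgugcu
mir-53 5p: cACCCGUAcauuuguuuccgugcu
mir-54 3p: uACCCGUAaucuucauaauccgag
mir-55 3p: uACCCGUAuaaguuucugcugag
mir-56 3p: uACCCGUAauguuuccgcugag
mir-48 5p: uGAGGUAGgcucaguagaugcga
let-7 5p: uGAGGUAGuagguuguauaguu
mir-124 3p: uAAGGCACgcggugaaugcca
lin-4 5p: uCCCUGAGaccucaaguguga
mir-250 3p: aAUCACAGucaacuguuggc

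The genomic stretches around 3 summits that lie inside or at the hairpin are shown next, 100 bases to each side of the summit. Each is on the strand of the named miRNA gene, with the annotated mature arms of that gene alone in capitals. The mir-56 stretch also holds the 3p arm of mir-55, in lower case. They show where in the hairpin the strongest point of the peak fell. For mir-52 the window is IV:14033909-14034109 on the plus strand, for mir-56 X:13144676-13144876 on the minus strand and for mir-124 IV:11871699-11871899 on the plus strand.
mir-52: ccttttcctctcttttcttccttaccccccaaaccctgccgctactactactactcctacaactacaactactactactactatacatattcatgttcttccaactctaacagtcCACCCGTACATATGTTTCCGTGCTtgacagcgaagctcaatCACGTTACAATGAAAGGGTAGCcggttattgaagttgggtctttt
mir-56: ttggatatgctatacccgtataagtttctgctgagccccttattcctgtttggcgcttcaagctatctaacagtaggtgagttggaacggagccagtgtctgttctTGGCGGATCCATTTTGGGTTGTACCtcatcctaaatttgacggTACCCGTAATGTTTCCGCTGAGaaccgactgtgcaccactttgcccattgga
mir-124: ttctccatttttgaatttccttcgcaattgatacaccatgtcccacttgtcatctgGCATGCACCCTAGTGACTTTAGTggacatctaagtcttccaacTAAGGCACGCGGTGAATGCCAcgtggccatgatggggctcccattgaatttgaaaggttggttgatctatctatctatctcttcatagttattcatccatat

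The authors deposited ranked peak lists for the series as a whole and for each replicate. Each peak carries a signal value, which is the authors' own and whose scaling is not stated, and the −log10 of its irreproducible discovery rate (IDR), a measure of whether a peak recurs. A thresholded peak is one with an IDR of 0.01 or less, that is a −log10 of 2 or more. The series-wide list holds 117986 ranked peaks with 996 past the threshold, replicate 1 holds 112641 with 408 and replicate 2 holds 110961 with 394. No file gives read counts, so the depth of each replicate is unknown, and levels were compared within a list. Where signals of different lists stand side by side, they are a description. Each gene was given a window from 1000 bp upstream to 200 bp downstream of its start, and called where a thresholded summit fell in it.

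In the series-wide list, 16 of the 261 miRNA genes were called, or 6.13% (95% Wilson interval 3.81 to 9.72, counting error only). Among the 19973 protein-coding genes 442 were called, or 2.21%, and among all genes 1197, or 2.55%. In replicate 1 alone 8 miRNA genes were called (3.07%), against 0.991% of protein-coding genes and 1.28% of all genes. In replicate 2 alone 3 were called, which is 1.15% with a Wilson interval of 0.392 to 3.32, beside 0.911% of protein-coding genes and 1.33% of all genes. The share of called miRNA genes was thus above that of protein-coding genes in the series-wide list and in replicate 1. In replicate 2 the share for protein-coding genes lay inside the interval for miRNA genes. Windows that overlap share summits, so the genes are not independent, and no test was made. The 16 genes stand for 13 separate loci, since neighbouring windows overlap, and their windows hold 18 of the 996 thresholded peaks (1.81%).

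Of the other small RNA classes, tRNA, snoRNA and snRNA genes were called at higher shares and piRNA genes at a lower one. Of 612 tRNA genes 243 were called (39.7%), of 346 snoRNA genes 67 (19.4%) and of 129 snRNA genes 18 (14.0%). The piRNA genes, which are numerous, short and densely clustered, stood at the other end, with 58 of 15363 called (0.378%). Genes of the Ensembl ncRNA class were called at 4.21% (327 of 7764), with a Wilson interval of 3.79 to 4.68 that overlaps the miRNA one. Their share was 2.18% in replicate 1, below that of miRNA genes, and 2.36% in replicate 2, above it. The miRNA share lay below those of the tRNA, snoRNA and snRNA genes in the series-wide list and in each replicate. In replicate 1 it was 3.07%, against 23.2% for tRNA, 13.6% for snoRNA and 6.20% for snRNA genes. The Wilson intervals of miRNA and snRNA genes overlapped in that list and in the series-wide list (3.81 to 9.72 for miRNA and 9.01 to 21.0 for snRNA genes). Of the 996 thresholded peaks, 283 had a summit no more than 200 bp from a gene for a tRNA, rRNA, snoRNA or snRNA, yet none of the 18 in miRNA windows did. The nearest such gene to the strongest summit of a called miRNA gene was 2382 bp away.

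**Figure D1:**
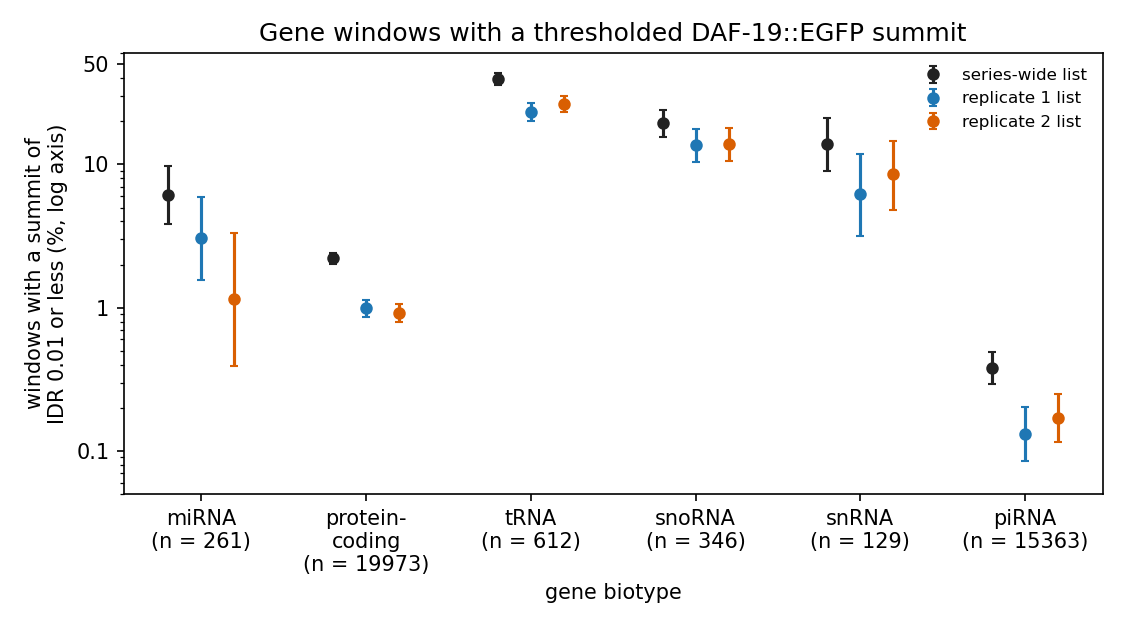
Share of gene windows holding a thresholded summit (percent, log axis) for 6 biotypes, with 95% Wilson intervals as bars and the number of genes in brackets. In the series-wide list miRNA genes stand at 6.13%, above protein-coding genes at 2.21% and below tRNA genes at 39.7%.

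Over all windows, the values of miRNA and protein-coding genes lay close together. A ranked peak of any strength lay in 167 of 261 miRNA windows (64.0%), against 69.0% of protein-coding windows and 70.6% of all windows. The median of the highest signal per window was 56.1 for miRNA genes (quartiles 42.2 and 70.2) and 52.4 for protein-coding genes, a ratio of medians of 1.07. In replicate 1 the medians were 31.2 for miRNA genes and 30.2 for protein-coding genes, and in replicate 2 they were 29.6 and 26.3 in the same order. At the upper end, of the 167 miRNA windows with a peak, 51 lay above the 75th percentile of protein-coding windows, 25 above the 90th, 21 above the 95th and 3 above the 99th. Where both replicates had a ranked peak in a miRNA window, which was so for 157 genes, their highest signals had a Spearman rho of 0.585, against 0.380 over 13138 protein-coding windows. These windows share their libraries, so both values are descriptions. The 16 called genes all had a ranked peak in both replicates. Their median signal was 76.1 in replicate 1 and 58.8 in replicate 2, against 29.7 and 28.1 in the miRNA genes that were not called. The calls came from a list made from both replicates, so this gap follows from the choice and supports nothing.

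The mir-51 family, abundant miRNAs known for roles in embryonic and pharyngeal development, held 5 of the 16 called genes out of its 6 members. Their sequences are the first 6 printed. The mir-51 gene (IV:11026013-11026112, minus strand, outside protein-coding genes) had a highest signal of 201 in the series-wide list, 116 in replicate 1 and 83.6 in replicate 2. Its summit lay 135 bp upstream of the gene start and 28 bp from the non-coding RNA gene F36H1.17. The mir-52 gene (IV:14034008-14034107, plus strand, outside protein-coding genes) had 192 in the series-wide list, 89.7 in replicate 1 and 118 in replicate 2. Both genes were called in both replicates, and mir-52 was among the few with the higher signal in replicate 2. Its strongest summit lay 1 bp from the gene start, and further thresholded summits of signal 158 and 54.0 lay 766 and 561 bp upstream. In replicate 1 the strongest summit was 151 bp downstream of the start and in replicate 2 it was 7 bp downstream.

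The cluster of mir-54, mir-55 and mir-56 on chromosome X lies in an intron of F09A5.3, on the opposite strand. Its windows overlap, so its members share summits. The strongest, of signal 161, lay 11 bp into the mir-56 gene (X:13144691-13144787), as printed above. For mir-55 (X:13144827-13144924) the same summit was 148 bp downstream of the start. The next, of signal 140, lay 393 bp upstream of mir-54 (X:13144996-13145094), the first gene of the cluster. Another thresholded summit had a signal of 10.6, and its peak overlaps that of the strongest. Highest signals in the mir-55 and mir-56 windows were 91.3 in replicate 1 and 72.8 in replicate 2. These came from different summits, the upstream one in replicate 1 and one near the strongest in replicate 2. Near the strongest summit replicate 1 had 72.2. For mir-54 they were 91.3 and 54.0 in that order. Replicate 1 passed the threshold at the upstream summit only, with a −log10 IDR of 2.50. Replicate 2 passed it nowhere in the cluster, its highest value being 0.773. A further annotated gene, mir-55b, is read from the strand opposite to mir-55 and was called through the same summits, so it is no separate observation.

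The remaining member, mir-53 (IV:11027593-11027691), is on the same strand as mir-51 and within 2000 bp of it. Its highest signal was 70.8 in the series-wide list, 44.9 in replicate 1 and 36.8 in replicate 2, with a series-wide −log10 IDR of 1.25. Its summit also lay 135 bp upstream of the start. The family as a whole had a median highest signal of 161 and 6 of 6 members with a ranked peak, against 56.1 and 167 of 261 over all miRNA genes. That median is the value of the summit that mir-55 and mir-56 share. The gene lists were chosen with earlier results of these data known, so this contrast is a description. The 5 called members sit at 3 separate loci.

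**Figure D2:**
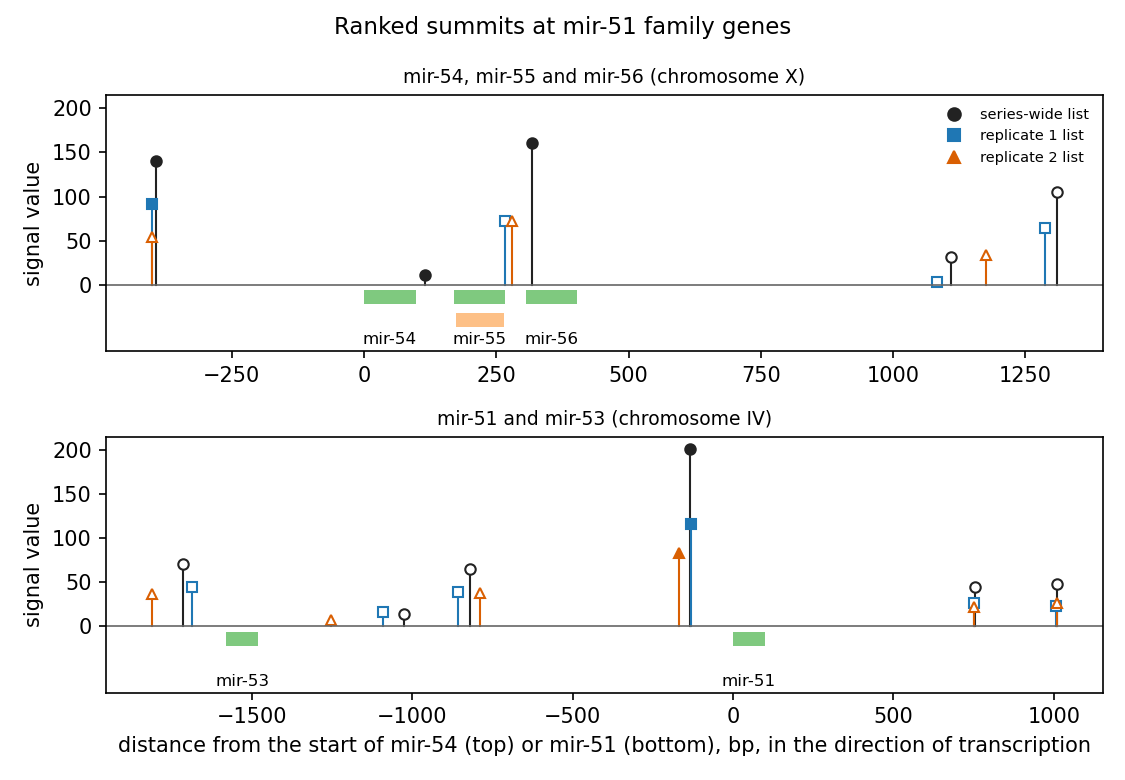
Ranked summits around the mir-54 to mir-56 cluster (top) and around mir-51 and mir-53 (bottom), by distance from the start of mir-54 or mir-51 in bp, with height as the authors' signal value; filled markers passed the IDR threshold. Green boxes are genes, the orange box is mir-55b on the other strand, and the upstream summit at mir-51 is filled in both replicates, while that at mir-54 is filled in replicate 1 and open in replicate 2.

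Among the heterochronic miRNAs, which time the larval moults and cell divisions of the skin, 1 of 6 was called. This was mir-48 (V:14364412-14364509, minus strand), a let-7 relative that acts with mir-84 and mir-241. It had a highest signal of 146 in the series-wide list, 80.0 in replicate 1 and 62.4 in replicate 2. Its summit lay 523 bp upstream of the start, and replicate 1 passed the threshold on its own while replicate 2 had a −log10 IDR of 1.73. The founding heterochronic gene lin-4 (II:5902254-5902347, in an intron of F59G1.4) fell just outside. Its signal was 110 in the series-wide list, 55.8 in replicate 1 and 45.2 in replicate 2, and its −log10 IDR was 1.95. In the other series-wide list the same gene just passed, at 2.00. Its summit lay inside the hairpin, 85 bp from the start.

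The remaining heterochronic genes had lower signals: 75.3 for mir-84, 67.3 for mir-241 and 44.2 for mir-237, a relative of lin-4. For let-7 the window of the annotated gene start gave 19.6 in the series-wide list, 23.0 in replicate 1 and 6.49 in replicate 2, the series-wide value being among the 5 lowest of the 167 miRNA windows with a ranked peak. That gene model is a primary transcript of 1732 bp. Measured from the start of its hairpin instead, the highest signals were 69.1 in the series-wide list, 32.3 in replicate 1 and 31.8 in replicate 2, with a −log10 IDR of 0.388 in the series-wide list. By shared seed, mir-48 was the sole called gene of the 5 that carry the let-7 seed, mir-795 being the fifth.

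Of the 3 miRNAs listed here as neuronal, mir-124 was called. In the worm it is known from ciliated sensory neurons, the cells in which DAF-19 is best studied. It lies at IV:11871738-11871833 in an intron of trpa-1, a sensory ion channel gene, on the same strand. Its highest signal was 135 in the series-wide list, 83.2 in replicate 1 and 56.0 in replicate 2. Replicate 1 passed the threshold with a −log10 IDR of 2.40, and replicate 2 had 1.23. The summit fell 61 bp into the gene, at the first bases of the 3p arm in the printed stretch. It was 13 bp into the non-coding RNA gene C29E6.8 annotated on the other strand. The others of this list were not called. The gene lsy-6 had 71.0 in the series-wide list, 40.9 in replicate 1 and 22.6 in replicate 2. For mir-273 the values were 43.9, 21.1 and 14.8 in the same order. The muscle miRNA mir-1 had 60.3 in the series-wide list, with 41.5 in replicate 1 and 22.5 in replicate 2.

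The mir-35 and bantam families had no called gene and few peaks of any strength. Of the 8 mir-35 family genes, which act in oocytes and embryos, 1 had a ranked peak in its window. This was mir-42, at 64.0 in the series-wide list and 32.0 in replicate 2, with no ranked peak in replicate 1. The others, mir-35 to mir-41, stand side by side on chromosome II in an intron and share most of their windows, so they are close to a single observation. Of the 8 annotated genes listed here as the bantam family, named after its fly relative, 2 had a ranked peak. These were mir-82 at 37.8 and mir-81 at 36.2 in the series-wide list. The list does not follow a single seed, and mir-58c, which has the seed of mir-81 and mir-82, is not in it. The other families with a called gene included that of the seed AUCACAG, with mir-2 and mir-250 called and mir-43 and mir-797 not. In all, 46 seeds were shared by 2 or more genes among 458 mature sequences.

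**Figure D3:**
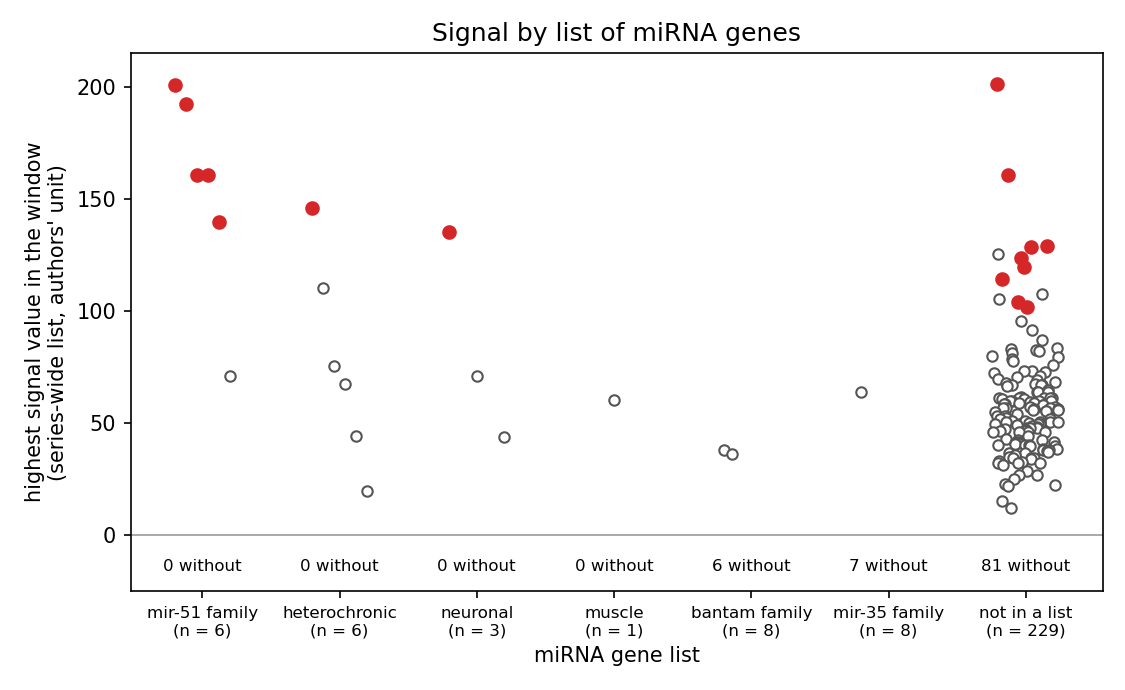
Highest signal per window in the series-wide list (authors' unit) for the listed miRNA groups, 1 point per gene; red points are called genes, open points are not, and the number of genes without a ranked peak stands under each group. The mir-51 family has the highest median, 161, which is the summit shared by mir-55 and mir-56, and 5 of 6 called. Of the mir-35 family genes 7 of 8 have no peak.

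Outside these groups 9 of 229 genes were called. The highest signal of all miRNA genes was that of mir-354 (I:14468382-14468491), with 201 in the series-wide list, 129 in replicate 1 and 84.9 in replicate 2, past the threshold in both replicates. Its summit lay 855 bp upstream of the miRNA. It was 243 bp upstream of rps-20, a small-subunit ribosomal protein gene that holds the miRNA on the same strand, and 154 bp upstream of ekl-4, which runs the other way. The peak thus lay between these divergent genes, and the data do not assign it to one of the 3 genes. In 3 further called genes the summit fell in a protein-coding window, that of nduf-9 for mir-4936, of F55A11.4 for mir-250 and of F44E7.5 for mir-253. The mir-253 summit lay 69 bp upstream of F44E7.5, which holds the miRNA on the same strand, and 375 bp upstream of mir-253. It also lay inside the non-coding RNA gene F44E7.13. The data do not assign these summits to the miRNA or to its neighbour. The other 12 of 16 had a summit in no protein-coding window.

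The genes mir-71, known for a role in lifespan, and mir-2 lie in introns of ppfr-1 on chromosome I. The highest signal of mir-71 was 129 in the series-wide list, 71.9 in replicate 1 and 50.3 in replicate 2, and its summit lay 30 bp upstream of the start, with another thresholded summit of signal 113 at 777 bp upstream. For mir-2 the values were 119, 58.0 and 60.3 in the same order, with a summit 600 bp upstream. Neither passed the threshold in a replicate alone. The weaker called genes were mir-4936 with 129, mir-2214 with 124, mir-250 with 114, mir-257 with 104 and mir-253 with 102, all in the series-wide list and none past the threshold in a replicate. Together with mir-71, mir-2 and mir-55b they make 8 genes whose call rests on the series-wide list. In 13 of the 16 called genes replicate 1 had the higher signal, against 102 of the 157 miRNA genes with a peak in both. The scaling between the lists is unknown, and the replicate values need not come from the same peak. The strongest summit lay within 100 bp of the series-wide one in 12 of the 16 genes in replicate 1 and 15 in replicate 2. For mir-55, mir-56 and mir-71 the replicate values came from different summits.

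**Figure D4:**
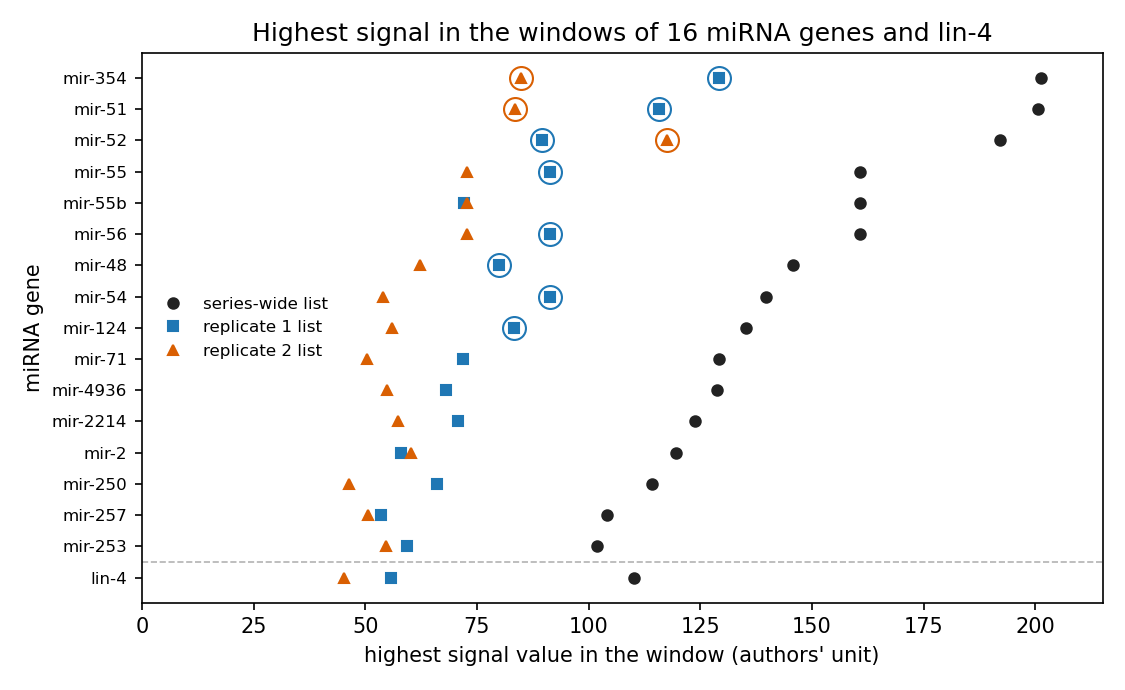
Highest signal in the window (authors' unit) for the 16 called miRNA genes, ordered from top to bottom, and for lin-4 below the dashed line, in the series-wide list (circles), replicate 1 (squares) and replicate 2 (triangles); rings mark values from windows called in that replicate. Replicate 1 lies above replicate 2 in 13 of the 16, and mir-354, mir-51 and mir-52 carry both rings.

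At the threshold, the gene just inside was mir-257, with a −log10 IDR of 2.08 and a signal of 104. In the other series-wide list it had 1.20 and mir-253 had 1.94, so neither was called there. Just outside stood lin-4 at 1.95, then mir-83 at 1.72 with a signal of 108, a relative of the vertebrate miR-29 family. Next was mir-5549 at 1.64, whose signal of 125 was above that of mir-2214 and of the called genes below it. In the other series-wide list mir-5549 had 2.41 and was called. Its summit also lay in windows of eef-1A.1, a translation elongation factor gene, and rfc-4. At the lower end, among windows with any peak, mir-8206 had 12.2, mir-12134 had 15.1, let-7 had 19.6, mir-8212 had 21.9 and mir-4922.2 had 22.5.

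The strongest summit lay within 200 bp of the gene start in 11 of 16 called miRNA genes (68.8%), against 151 of 442 called protein-coding genes (34.2%) and 214 of 243 called tRNA genes (88.1%). An even spread over the window gives 33.4%. Over all genes with a ranked peak the shares were 43.7% of 167 miRNA windows and 34.6% of 13779 protein-coding windows. In 4 of the 16 the summit fell inside the hairpin, and in 10 it lay within 100 bp of it. The genes mir-55, mir-55b and mir-56 have the same strongest summit, which enters the counts of 11 and of 10 for each of them. The 4 with a summit inside were mir-52, mir-56, mir-124 and mir-4936, at separate loci. These places are those of the series-wide list. In replicate 1 the strongest mir-52 summit lay 52 bp outside the hairpin. Near mir-56 the summits of both replicates lay outside its hairpin, 52 and 38 bp from the series-wide one. For mir-124 and mir-4936 both replicate summits lay inside. Most peaks in the series-wide list had a width of 380 bp, so a place within a hairpin is not resolved. An annotated non-coding RNA gene of the Ensembl ncRNA class lay within 200 bp of 9 of the 18 summits, against 236 of all 996 (23.7%). The 18 are not all separate, since some peaks at mir-52 and at the mir-54 cluster overlap. The sets are also unlike, as 283 of the 996 lie near a tRNA, rRNA, snoRNA or snRNA gene and none of the 18 does.

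**Figure D5:**
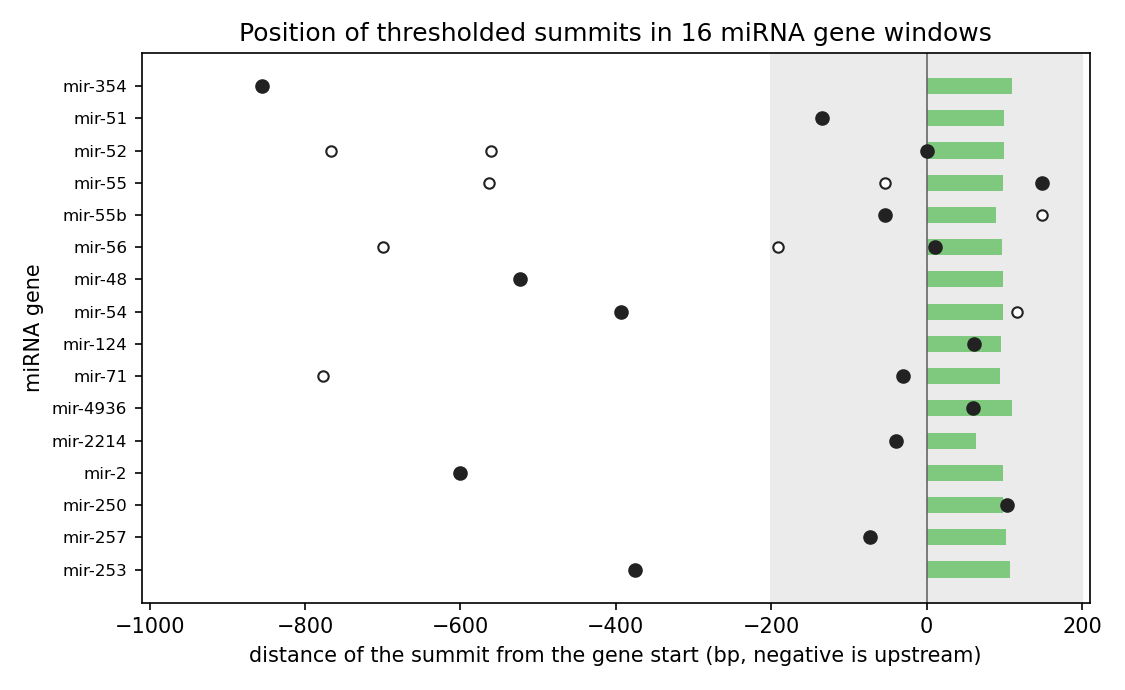
Thresholded summits of the series-wide list in the windows of the 16 called miRNA genes, by distance from the gene start in bp (negative is upstream); filled circles are the strongest summit of each window, open circles the others, green bars the hairpins and the grey band 200 bp to each side of the start. In 11 of the 16 genes the filled circle lies in the band, and those of mir-55, mir-55b and mir-56 are the same summit.

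By the setting of the gene, of 97 miRNA genes in introns of protein-coding genes 9 were called (9.28%), and of 152 outside protein-coding genes 6 (3.95%). Among the intronic ones 6 of 67 on the strand of the host and 3 of 30 on the opposite strand were called. Of these 9, 4 are mir-54, mir-55, mir-55b and mir-56, a single locus with shared summits, so the shares by setting count it several times. Genes with a name number under 1000, with lin-4, let-7 and lsy-6, are on the whole those found first and cloned from abundant RNA. Of these 137, 14 were called (10.2%), with a median signal of 59.4, against 2 of 124 with higher numbers (1.61%) and a median of 50.7. The 14 also include the 4 genes of that single locus. By chromosome, 4 of 28 were called on V, 3 of 33 on I, 2 of 27 on III, 3 of 50 on IV, 4 of 74 on X and 0 of 49 on II, and the 4 on X are that same locus. Protein-coding genes were called at 1.38% on V, 3.16% on I, 3.79% on III, 1.77% on IV, 1.61% on X and 2.32% on II.

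The X-box was then searched by its consensus on both strands. A match lay in 27 of 261 miRNA windows (10.3%), against 10.7% of protein-coding windows and 11.6% of all windows. In windows of 500 bp upstream to 100 bp downstream the order was the other way, with 21 miRNA windows (8.05%) against 5.56% of protein-coding windows and 6.08% of all windows. None of the 16 called windows held one, and none of the 18 thresholded summits had one within 100 bp, where 7 of all 996 did. The half-site of the X-box, GTTNCC, which is an arm of the longer element so that the searches overlap, lay in 80.5% of miRNA windows and 78.7% of protein-coding windows. Within 100 bp it stood at 7 of the 18 summits (38.9%) and at 277 of 996 (27.8%). The GC content of the 201 bp around the summits had a median of 43.8% over the 18, against 42.3% over the 996.

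The high share of called tRNA genes led to a search for the B box, the internal promoter element of tRNA genes, written GGTTCGA, any 2 bases and CC and sought on both strands, a motif chosen after the sequences at the summits had been read. It lay within 100 bp of 2 of the 18 summits (11.1%), those of mir-51 and mir-4936, and of 128 of all 996 (12.9%). The match at mir-51 lies inside the non-coding RNA gene F36H1.17. Of the 283 thresholded summits near such genes (tRNA, snoRNA, snRNA, rRNA), 120 had a B box (42.4%). The element is itself part of tRNA genes, so that share is no result about the peaks. Of the other 713 there were 8 (1.12%), and these 2 are among the 8. The motif was picked after these sequences had been read, so that supports nothing. In the gene windows it was in 2.30% of miRNA windows, 1.20% of protein-coding windows and 2.79% of all windows. A match is a description of letters and not a site. The stretches around the summits of mir-51 (IV:11026147-11026347, minus strand) and mir-4936 (III:3249111-3249311, plus strand) are shown with the B box in capitals, on the strand on which it reads. That of mir-48 (V:14364932-14365132, minus strand) has its 2 half-sites in capitals, which stand close together on opposite strands.
mir-51: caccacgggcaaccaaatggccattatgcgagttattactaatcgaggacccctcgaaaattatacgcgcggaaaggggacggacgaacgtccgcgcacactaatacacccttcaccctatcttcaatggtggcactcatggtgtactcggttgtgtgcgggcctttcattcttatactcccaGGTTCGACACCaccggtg
mir-4936: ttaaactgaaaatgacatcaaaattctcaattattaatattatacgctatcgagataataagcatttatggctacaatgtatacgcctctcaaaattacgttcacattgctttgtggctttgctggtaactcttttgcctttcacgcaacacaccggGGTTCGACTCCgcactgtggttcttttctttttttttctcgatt
mir-48: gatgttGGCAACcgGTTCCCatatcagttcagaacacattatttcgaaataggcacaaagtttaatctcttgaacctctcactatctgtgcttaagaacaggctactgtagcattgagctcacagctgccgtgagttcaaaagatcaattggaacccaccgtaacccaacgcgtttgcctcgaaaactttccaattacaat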

How the data were processed

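ChIP-seq peaks of 1 group with 2 replicates were used. The deposited files are ranked and thresholded lists of peaks on ce11, per replicate and for both together. Their signal values (column 7) and −log10 IDR values (column 12) are the authors' own, per the deposited lists' layout; aligner, peak caller, normalization and depth: not given in the sources used here. In each ranked list 8 further columns carry no names and were not used. Comparing the lists showed that a −log10 IDR of 2 or more separates the thresholded peaks from the other ranked ones. Summits were assigned to gene windows (Ensembl release 115; 1000 bp before to 200 bp after the gene start), and the highest signal and −log10 IDR were taken. No test was made, since there is no second condition. The members and gene lists were chosen with earlier results of these data known. Genes named are those called in any list, the 15 with the highest signal, the members of the lists, those next to the threshold and the 5 lowest. Of 33 listed genes 32 were found in the annotation. Motifs were searched in the WBcel235 sequence of RefSeq. The assignment was tested on simulated data. Alternatives were the other series-wide list, each replicate alone, other windows, overlap instead of summits, other IDR thresholds and subsets of genes. The tools were pandas 2.3.3 and numpy 2.4.6 under Python 3.11.15, with scipy 1.17.1 for correlations and matplotlib 3.10.9 for figures.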

Additional observations from a re-analysis of the deposited data

How the results depend on the processing

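The 16 called miRNA genes were also 16 in the other series-wide list, of which 14 were the same genes, and the count stayed within 1.5 times under most settings. It was 3 without replicate 1, 8 without replicate 2, 6 among genes outside protein-coding genes and 3 at an IDR of 0.001 or less. The share of miRNA windows called minus that of protein-coding windows was 3.92 percentage points. It was 0.238 without replicate 1 and 2.07 without replicate 2, 1.73 outside protein-coding genes and 0.494 at an IDR of 0.001. For genes with name numbers under 1000 it was 8.01, which, like the 3.92, counts the locus of mir-54, mir-55, mir-55b and mir-56 several times. The median highest signal was 56.1, and 29.6 to 31.2 without a replicate. Protein-coding windows had 52.4, and 26.3 to 30.2 without a replicate. The scaling between these lists is unknown, so these drops are not a result about miRNA genes. In the series-wide list the miRNA median was 49.0 in windows of 500 and 100 bp and 61.0 in windows of 2000 and 200 bp. It was 59.5 by overlap of peaks, 53.2 apart from protein-coding promoters and 53.6 outside protein-coding genes. Its ratio to the protein-coding median, 1.07, was 1.01 to 1.12 under all alternatives tried. The share called minus that of tRNA windows, −33.6 points, was −25.3 to −20.1 without a replicate. Minus snoRNA windows it was −13.2, then −12.7 to −10.5 without a replicate, −11.5 in the other series-wide list and −9.85 in windows of 500 and 100 bp. Minus snRNA windows it was −7.82, then −7.38 to −3.14 without a replicate. No sign changed. The 27 windows with an X-box match were 0 with a stricter consensus, which matched 0.0501% of protein-coding windows. With a looser one they were 132 (50.6%), against 51.1% of protein-coding windows and 51.9% of all windows. The rho between replicates, 0.585, was 0.474 in windows of 2000 and 200 bp. No paired analysis was possible because there is 1 group. Settings for the hairpin start, the gene with 200 bp around it, the gene list without mir-55b, the name numbers and the windows of the rho were chosen after seeing the data. The cause of these shifts was not tested. With 2 replicates and no counts, neither depth nor the error of a signal can be given.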
